A study of Mus musculus with 7 samples.

Results

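A set of 37 genes for synaptic adhesion proteins was described in female mouse tissue from the VMHvl, the ventrolateral ventromedial hypothalamus, after the mice were given estradiol benzoate (EB) or vehicle. The genes were taken by symbol from a list that holds the leucine-rich repeat families SLITRK, LRRTM, FLRT, LRFN, LRRC4 and ELFN together with neurexins, neuroligins and their partners. All 37 were found among the 48321 genes of the count tables, and all 37 passed the filter on low counts, with at least 36 counts in every library. The EB group was 4 ovariectomized females that received 1 µg of EB, a long-acting ester of estradiol, under the skin, and the vehicle group was 3 ovariectomized females injected with vehicle alone. Tissue was dissected by hand 4 hours after the injection in both groups. The mice were of mixed background with 129/Sv ancestry, bred from a floxed Esr1 line, and the labels name no Cre and no age. A library is 1 mouse, and the SDs below are therefore between animals.

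Synaptic adhesion proteins reach across the synaptic cleft and hold the presynaptic terminal against the postsynaptic membrane. On the presynaptic side stand the neurexins, the LAR-type receptor phosphatases and the netrin-G proteins. On the postsynaptic side, neuroligins and LRRTM proteins bind neurexins, SLITRK proteins and the IL-1 receptor accessory proteins bind LAR-type phosphatases, the LRRC4 proteins bind netrin-G proteins or LAR-type phosphatases, and FLRT proteins bind latrophilins and UNC5 receptors. Several of these pairs promote the formation or the maturation of excitatory synapses, and a smaller number act at inhibitory synapses.

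Library totals ran from 22311424 to 33302293 counts with EB and from 21037303 to 30909554 counts with vehicle. Mitochondrially encoded genes took 10.2% to 22.3% of counts with EB and 10.9% to 28.8% with vehicle. The dissected region was checked against marker genes. Esr1, estrogen receptor alpha, averaged 192 ± 30.2 CPM with EB and 223 ± 81.6 CPM with vehicle (SD, n = 4 and 3), where CPM is the count scaled to TMM-normalised library size, and the VMH marker Fezf1 was at 108 CPM or more in every library, whereas the VMH transcription factor Nr5a1 stood at 0.927 to 3.51 CPM with EB and 1.14 to 3.15 CPM with vehicle. Vehicle 1 and EB 4 had the highest summed CPM of 7 mural and fibroblast markers in their groups.

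The members were lower with EB in 4 genes and higher in none. Slitrk4, Lrrc4c, Lrrtm3 and Flrt2, each from a different leucine-rich repeat family, fell to between 0.603 and 0.747 times the vehicle level. EdgeR's quasi-likelihood test with Benjamini-Hochberg adjustment over 18387 tested genes called 4 of 37 members lower (10.8%), against 0.207% of all tested genes. It called 0 higher, against 0.712% of all tested genes. At an unadjusted p under 0.05, 9 members were lower and 3 were higher, against 3.85% and 4.69% of all tested genes. DESeq2 called 7 members lower, where its share over all genes was 0.653%, and 0 higher, where its share was 1.26%. Limma-voom called 4 lower, where its share was 0.201%. The EB and vehicle libraries did not overlap in 10 members that were lower and 2 that were higher with EB, against 3.99% and 5.11% of tested genes. Of the higher ones, Lrfn2 was separated only by a near tie. The median log2 change was −0.09 over the 37 members, with 26 negative and 11 positive, and −0.01 over all tested genes. This shift was not shared by every vehicle library. The median log2 deviation of members from their own means was −0.05, 0.10 and 0.10 in vehicle 1 to 3. With EB it was −0.03, −0.04, −0.03 and −0.08 in EB 1 to 4, so vehicle 1 lay among the EB libraries. The members, and the partner list used below, were chosen with earlier results of these data known. These shares are therefore a description and not independent evidence.

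**Figure D1:**
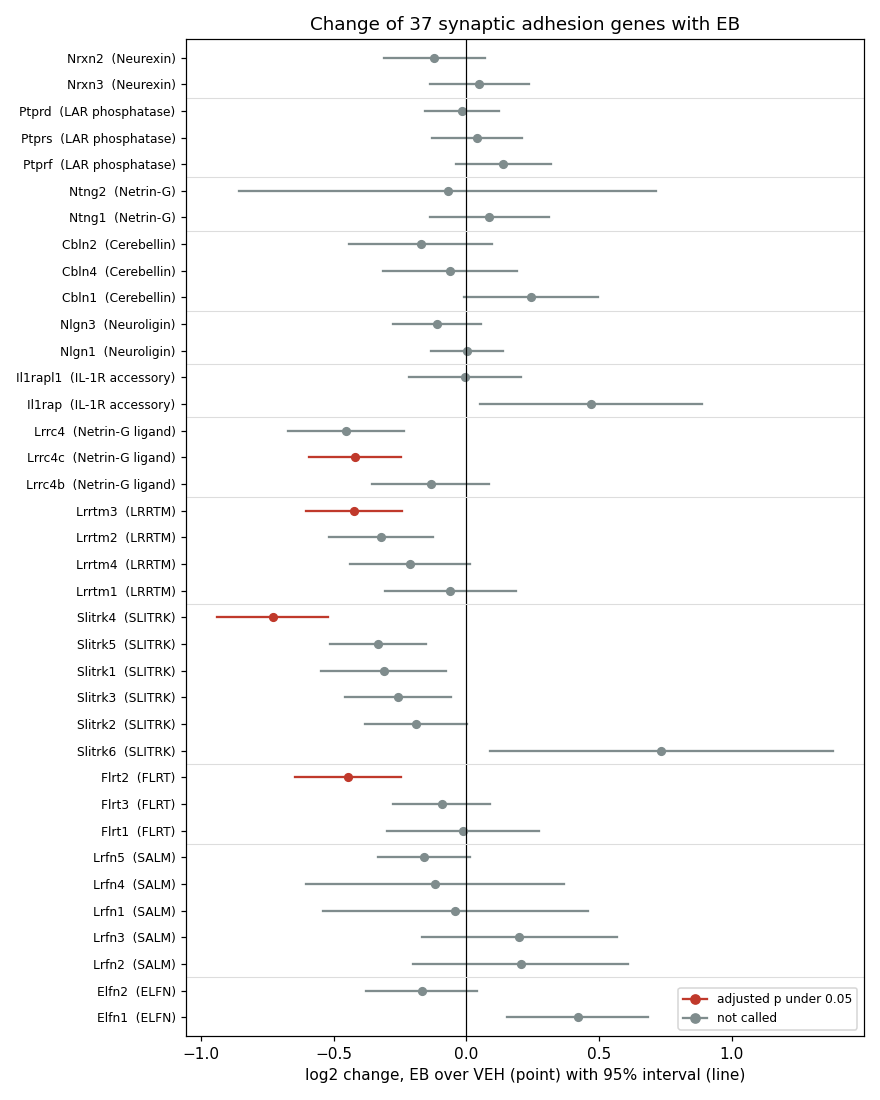
Log2 change of each member, EB over vehicle, with its 95% interval; members are grouped by family from top to bottom, and red marks an adjusted p under 0.05. The 4 red points lie between −0.73 and −0.42, 1 each in the netrin-G ligand, LRRTM, SLITRK and FLRT families, while the neurexins and LAR-type phosphatases at the top lie between −0.12 and 0.14.

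Slitrk4 encodes a single-pass membrane protein with leucine-rich repeats outside the cell that binds the LAR-type phosphatase PTPσ. The gene lies at chrX:64264885-64276996 on the minus strand (mm10, GENCODE M21), and no other counted gene shares its exons. It had 152, 151, 159 and 122 CPM in the 4 EB libraries, against 220, 275 and 232 CPM in the 3 vehicle libraries. Every EB library lay below every vehicle library, and EB 4 was the lowest of all. The mean was 146 ± 16.5 CPM with EB and 242 ± 28.7 CPM with vehicle (SD, n = 4 and 3). The log2 change was −0.73 ± 0.10 (SE), with a 95% interval of −0.94 to −0.52 and an adjusted p of 0.00232 by edgeR. Slitrk4 ranked 35 by p among all tested genes. Its call held without each library in turn, with a log2 change between −0.80 and −0.63 and an adjusted p of at most 0.0146 by edgeR.

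Lrrc4c encodes netrin-G ligand 1, the postsynaptic partner of netrin-G1, and lies at chr2:96318169-97631666 on the plus strand. It had 174, 160, 170 and 166 CPM with EB, against 198, 254 and 220 CPM with vehicle. The EB libraries were close together, with a coefficient of variation of 3.56%, and vehicle 2 stood highest. The log2 change was −0.42 ± 0.08 (SE; 95% interval −0.59 to −0.25; adjusted p = 0.0231 by edgeR). The call held without vehicle 1, and leaving out vehicle 2 or vehicle 3 ended it (adjusted p = 0.0547 and 0.0991 by edgeR), as did leaving out any EB library (0.0593, 0.0812, 0.0573 and 0.0666 for EB 1 to 4).

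Lrrtm3 encodes a leucine-rich repeat transmembrane protein that binds neurexins at excitatory synapses, and lies at chr10:63928472-64090277 on the minus strand. It had 56.8, 59.9, 53.4 and 53.3 CPM with EB, against 70.3, 82.3 and 72.0 CPM with vehicle. The groups were well separated, and the highest EB library stood more than 10 CPM below the lowest vehicle library. The log2 change was −0.42 ± 0.08 (SE; 95% interval −0.60 to −0.24; adjusted p = 0.0315 by edgeR). The call held without vehicle 1 and without EB 2, and leaving out vehicle 2 or vehicle 3 ended it (adjusted p = 0.115 and 0.0940 by edgeR), as did leaving out EB 1, 3 or 4 (0.102, 0.0879 and 0.0879).

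Flrt2 encodes a fibronectin leucine-rich repeat protein that binds UNC5 receptors and latrophilins, and lies at chr12:95692226-95785215 on the plus strand. It had 146, 143, 126 and 113 CPM with EB, against 172, 198 and 170 CPM with vehicle. The groups did not overlap, and EB 4 was again the lowest library. The log2 change was −0.45 ± 0.09 (SE; 95% interval −0.65 to −0.25; adjusted p = 0.0387 by edgeR). The call held without EB 1, and leaving out any vehicle library ended it (adjusted p = 0.0658, 0.129 and 0.0981 by edgeR for vehicle 1 to 3), as did leaving out EB 2, 3 or 4 (0.0501, 0.114 and 0.0797) or fitting without robust estimation (0.0581).

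Vehicle 2 had the highest vehicle level in all 4 of these genes and in 17 of the 26 members with a negative change, against 3 for vehicle 1 and 6 for vehicle 3. Vehicle 2 also stood apart in Esr1, which was at 183, 317 and 169 CPM in vehicle 1 to 3. With EB, Esr1 was at 198, 160, 231 and 180 CPM in EB 1 to 4. Whether the Esr1 level of vehicle 2 is linked to its levels of the members was not tested. Without vehicle 2 the log2 change was −0.63 for Slitrk4, −0.32 for Lrrc4c, −0.35 for Lrrtm3 and −0.37 for Flrt2, and edgeR called Slitrk4 alone. With counts scaled to library totals only, edgeR also called Slitrk4 alone, and the log2 changes were −0.70, −0.39, −0.39 and −0.42 in the same order. The direction was downward for these 4 genes under every scaling tried.

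**Figure D2:**
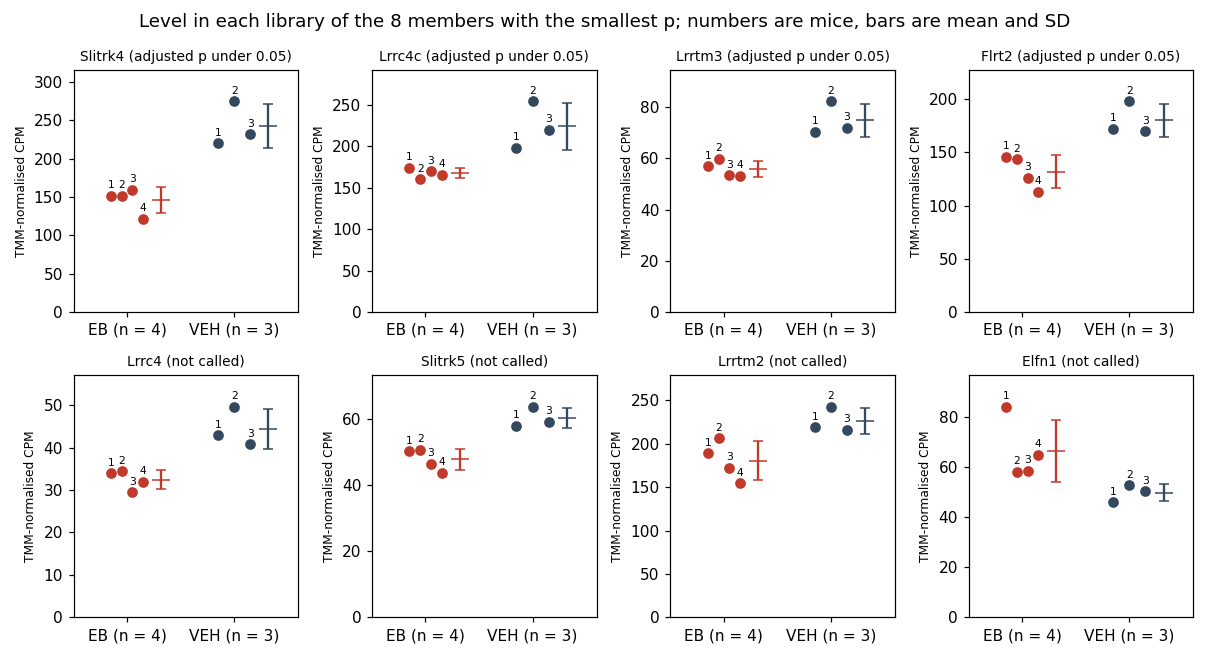
TMM-normalised CPM in each library for the 8 members with the smallest p, with EB at the left and vehicle at the right of each panel; points are mice, numbered, and bars are the mean and SD. In the 7 panels other than Elfn1 every EB point lies below every vehicle point, and in Elfn1 EB 1 stands at 84.1 CPM above the other libraries.

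The promoter windows of 3 of the 4 called genes are shown, as no window was held for Slitrk4. Whether these genes change jointly was not tested. RefSeq windows (GRCm38.p6) of 250 bases before to 50 after the start were held for 27 members, among them Lrrc4c, Lrrtm3 and Flrt2. Each is given 5′ to 3′ on the gene's strand, and capitals mark a motif match. Lrrc4c spans chr2:96317919-96318218 (+), Lrrtm3 chr10:64090206-64090505 (−) and Flrt2 chr12:95691976-95692275 (+).
Lrrc4c: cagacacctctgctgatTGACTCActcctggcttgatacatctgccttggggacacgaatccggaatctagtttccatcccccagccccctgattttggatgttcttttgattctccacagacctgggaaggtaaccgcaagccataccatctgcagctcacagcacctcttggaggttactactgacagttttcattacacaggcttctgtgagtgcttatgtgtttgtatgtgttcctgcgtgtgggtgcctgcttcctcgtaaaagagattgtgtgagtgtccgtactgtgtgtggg
Lrrtm3: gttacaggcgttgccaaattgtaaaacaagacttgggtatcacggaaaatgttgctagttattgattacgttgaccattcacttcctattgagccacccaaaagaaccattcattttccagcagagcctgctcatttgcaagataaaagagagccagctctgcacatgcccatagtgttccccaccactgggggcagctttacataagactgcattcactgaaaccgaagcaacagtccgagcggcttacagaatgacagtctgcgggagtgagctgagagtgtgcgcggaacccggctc
Flrt2: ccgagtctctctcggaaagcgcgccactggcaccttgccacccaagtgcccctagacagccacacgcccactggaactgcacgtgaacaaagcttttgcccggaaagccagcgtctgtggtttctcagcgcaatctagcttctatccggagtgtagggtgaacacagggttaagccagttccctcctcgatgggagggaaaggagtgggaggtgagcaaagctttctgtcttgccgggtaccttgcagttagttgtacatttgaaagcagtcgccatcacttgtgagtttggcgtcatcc

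These windows were searched on both strands for the estrogen response element GGTCANNNTGACC, for the single site AGGTCA bound by estrogen receptors and many other nuclear receptors, and for the AP-1 site TGANTCA. The estrogen response element holds GGTCA, so a full element preceded by A also counts as a single site. Lrrc4c held 1 AP-1 match, starting at base 18 of the window, and Lrrtm3 and Flrt2 held none of the 3 motifs. Among all 32851 promoter windows, 0.0700% held the estrogen response element, 16.3% the single site and 7.81% the AP-1 site. Of the 33 windows of members, 0 held the estrogen response element, 3 held the single site (Elfn1, Ptprs and Lrfn4) and 3 held the AP-1 site (Lrrc4c, Nrxn3 and Slitrk6). A match is a run of letters and was not tested as a binding site.

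Within the SLITRK family, 5 of 6 members had negative changes and Slitrk6 had a positive one. Slitrk5 had 50.1, 50.6, 46.5 and 43.7 CPM with EB, against 57.8, 63.7 and 59.1 CPM with vehicle (log2 −0.33 ± 0.08 SE; adjusted p = 0.119 by edgeR and 0.0197 by DESeq2). Its groups did not overlap, but edgeR did not call it. Slitrk1 had 93.9, 107, 98.1 and 98.5 CPM with EB, against 102, 150 and 117 CPM with vehicle (log2 −0.31 ± 0.11 SE; adjusted p = 0.350 by edgeR). Slitrk3, which promotes inhibitory synapses by binding PTPδ, had 58.0, 66.4, 63.6 and 51.2 CPM with EB, against 72.8, 73.0 and 69.0 CPM with vehicle (log2 −0.26 ± 0.09 SE; adjusted p = 0.366 by edgeR). The Slitrk3 groups did not overlap, and those of Slitrk1 did. Without vehicle 2, the highest Slitrk1 library, the Slitrk1 change was −0.14 (adjusted p = 0.728 by edgeR), and without vehicle 1 it was −0.44 (0.0774). Slitrk2 had a log2 change of −0.19, with a 95% interval of −0.38 to 0.0019. Slitrk6 had 59.0, 54.3, 63.1 and 33.0 CPM with EB, against 29.9, 22.3 and 42.5 CPM with vehicle (log2 0.73 ± 0.28 SE; 95% interval 0.09 to 1.38; adjusted p = 0.495 by edgeR). EB 4 lay among the vehicle libraries, and without it the log2 change was 0.90 (adjusted p = 0.0962 by edgeR), within a range of 0.53 to 1.00 over the libraries left out in turn. The 95% intervals of Slitrk4 and Slitrk6 did not overlap, while the difference between the 2 genes was not tested. Both Slitrk4 and Slitrk2 lie on the X chromosome, and Slitrk1, Slitrk5 and Slitrk6 lie on chromosome 14.

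All 4 LRRTM genes had negative changes. Lrrtm2, a neurexin-binding protein of excitatory synapses, had 189, 206, 172 and 155 CPM with EB, against 219, 243 and 216 CPM with vehicle (log2 −0.32 ± 0.09 SE; adjusted p = 0.184 by edgeR and 0.0377 by DESeq2). Its groups were separate, with EB 2 only about 9 CPM below vehicle 3. Lrrtm4, which also binds heparan sulphate proteoglycans, was at 25.9 ± 2.32 CPM with EB and 30.1 ± 0.427 CPM with vehicle (log2 −0.21; adjusted p = 0.636 by edgeR), again without overlap. Lrrtm1 was at 46.9 ± 4.56 CPM with EB and 48.9 ± 7.90 CPM with vehicle (log2 −0.06; 95% interval −0.31 to 0.19).

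The other netrin-G ligand genes were Lrrc4 and Lrrc4b. Lrrc4, netrin-G ligand 2, had 33.9, 34.4, 29.4 and 31.9 CPM with EB, against 42.9, 49.7 and 40.7 CPM with vehicle. The groups did not overlap, and the log2 change of −0.45 ± 0.10 (SE; 95% interval −0.67 to −0.24) had an adjusted p of 0.0589 by edgeR and 0.00339 by DESeq2. EdgeR also called Lrrc4 lower with upper quartile scaling (adjusted p = 0.0464), with the CPM filter (0.0459) and with no filter (0.0244), and it did not with library totals only (0.438), without robust fitting (0.0702) or with any library left out (0.0953 to 0.222). Limma-voom gave an adjusted p of 0.0671. Lrrc4b, netrin-G ligand 3, which binds LAR-type phosphatases, was at 36.9 ± 2.59 CPM with EB and 40.5 ± 4.46 CPM with vehicle (log2 −0.13; adjusted p = 0.813 by edgeR). For the FLRT family, Flrt3 was at 55.2 ± 4.63 CPM with EB and 58.9 ± 1.10 CPM with vehicle (log2 −0.09), and Flrt1 at 23.2 ± 3.43 CPM with EB and 23.4 ± 1.90 CPM with vehicle (log2 −0.01).

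Several leucine-rich repeat members are nested in another gene. By GENCODE M21, 8 members lie whole inside the span of a protein-coding gene on the opposite strand, among them Lrrtm3 in Ctnna3, Lrrtm2 in Ctnna1, Lrrtm1 in Ctnna2 and Lrrc4 in Snd1. The strand setting of the counting is not given in the sources used here, so reads of such a pair cannot be assigned to a strand. Ctnna3 averaged 3.00 CPM with EB and 2.24 CPM with vehicle (log2 0.43; adjusted p = 0.807 by edgeR), and Snd1 averaged 43.4 CPM with EB and 43.1 CPM with vehicle (log2 0.01). Ctnna1 had a log2 change of −0.10 and Ctnna2 of 0.01. Lrrtm2 also shares exon sequence with Ctnna1, and Lrrtm3 and Lrrc4 share none with another counted gene.

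The ELFN and LRFN families gave no calls by edgeR, with 1 of their 7 members at an unadjusted p under 0.05. Elfn1, which binds group III metabotropic glutamate receptors across the cleft, had 84.1, 58.1, 58.4 and 64.9 CPM with EB, against 46.0, 52.7 and 50.3 CPM with vehicle. The groups did not overlap, with EB 1 well above the others, and the log2 change was 0.42 ± 0.12 (SE; 95% interval 0.15 to 0.69; adjusted p = 0.216 by edgeR and 0.0520 by DESeq2). Without EB 1 the log2 change of Elfn1 was 0.28 (adjusted p = 0.444 by edgeR). That was the lowest value in a range up to 0.48 over the libraries left out in turn. Elfn2 was at 43.8 ± 3.40 CPM with EB and 49.2 ± 4.74 CPM with vehicle (log2 −0.17). The LRFN genes encode the SALM proteins, several of which bind postsynaptic scaffolds. Lrfn5 had 73.6, 68.4, 80.5 and 77.9 CPM with EB, against 80.1, 89.3 and 82.2 CPM with vehicle, with overlap at EB 3 (log2 −0.16 ± 0.08 SE; adjusted p = 0.646 by edgeR). The other 4 LRFN genes had group means between 5.10 and 9.69 CPM, and their log2 changes ran from −0.12 to 0.20 with intervals that all included 0. Lrfn2 was 1 of the 2 members with all EB libraries above all vehicle libraries, yet its interval was −0.20 to 0.61. Its separation was a near tie, with EB 2 at 5.9454 CPM and vehicle 3 at 5.9448 CPM.

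Presynaptic members other than Ntng2 had estimates between −0.12 and 0.14, with intervals within 0.5 log2 units of 0. Nrxn3, a neurexin, had 228, 212, 234 and 202 CPM with EB, against 186, 207 and 242 CPM with vehicle (log2 0.05 ± 0.09 SE; 95% interval −0.14 to 0.24). The vehicle libraries spanned the EB libraries. Nrxn2 averaged 79.7 CPM with EB and 86.6 CPM with vehicle (log2 −0.12 ± 0.09 SE; 95% interval −0.31 to 0.07). Of the LAR-type receptor phosphatases, Ptprd, which encodes PTPδ, had 382, 364, 373 and 358 CPM with EB, against 368, 406 and 346 CPM with vehicle, also with full overlap (log2 −0.02 ± 0.06 SE; 95% interval −0.16 to 0.12). Ptprs, which encodes PTPσ, was at 224 ± 16.0 CPM with EB and 218 ± 20.8 CPM with vehicle (95% interval −0.13 to 0.21), and Ptprf, which encodes LAR, at 89.2 ± 4.31 CPM with EB and 81.0 ± 8.38 CPM with vehicle (95% interval −0.04 to 0.32). Ntng1, which encodes netrin-G1, had 56.9, 66.9, 52.0 and 48.9 CPM with EB, against 52.6, 51.8 and 54.6 CPM with vehicle (log2 0.09 ± 0.10 SE; 95% interval −0.14 to 0.31). Ntng2 had the lowest level of the members, with 1.48 to 3.45 CPM in EB libraries and 1.65 to 2.77 CPM in vehicle libraries. It had at least 36 counts in every library, and its interval of −0.86 to 0.72 included a change of the size seen for Lrrc4c.

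Some partner pairs therefore stood side by side with different estimates. For the netrin-G1 pair, the ligand Lrrc4c had a log2 change of −0.42 (95% interval −0.59 to −0.25) and Ntng1 one of 0.09 (−0.14 to 0.31). For the PTPσ pair, Slitrk4 had −0.73 (−0.94 to −0.52) and Ptprs 0.04 (−0.13 to 0.21). The intervals within each pair did not overlap, and the difference between the genes of a pair was not tested.

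Postsynaptic members outside the leucine-rich repeat families gave no calls by edgeR, and Il1rap was the 1 gene among them at an unadjusted p under 0.05. Nlgn1, a neuroligin of excitatory synapses, had 276, 266, 271 and 247 CPM with EB, against 254, 264 and 276 CPM with vehicle. The groups covered the same range, and the log2 change was 0.0018 with a 95% interval of −0.13 to 0.14. Nlgn3 was at 130 ± 11.7 CPM with EB and 141 ± 2.04 CPM with vehicle, without overlap between the groups (log2 −0.11; 95% interval −0.28 to 0.05; adjusted p = 0.777 by edgeR). Il1rapl1, linked to X-linked intellectual disability in humans, had 66.4, 67.3, 62.7 and 53.7 CPM with EB, against 69.8, 58.4 and 60.0 CPM with vehicle (log2 −0.0043 ± 0.10 SE; 95% interval −0.22 to 0.21). Il1rap, the accessory protein of the interleukin-1 receptor, had 33.1, 25.8, 38.9 and 27.6 CPM with EB, against 30.4, 20.4 and 17.1 CPM with vehicle (log2 0.47 ± 0.19 SE; adjusted p = 0.493 by edgeR). Vehicle 1 lay among the EB libraries for Il1rap, and without it the log2 change was 0.74 (adjusted p = 0.0935 by edgeR), while without vehicle 3 it was 0.30 (0.758).

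Cerebellins are secreted proteins that bridge neurexins and delta-type glutamate receptors. Cbln1 had 143, 117, 154 and 134 CPM with EB, against 110, 138 and 98.2 CPM with vehicle (log2 0.24 ± 0.12 SE; 95% interval −0.01 to 0.49; adjusted p = 0.617 by edgeR). The groups overlapped at vehicle 2. The log2 change of Cbln1 was 0.39 without vehicle 2 and 0.13 without vehicle 3 (adjusted p = 0.156 and 0.849 by edgeR). Cbln4 was at 81.4 ± 5.37 CPM with EB and 84.9 ± 17.5 CPM with vehicle, and Cbln2 at 23.3 ± 2.35 CPM with EB and 26.2 ± 3.34 CPM with vehicle (log2 −0.06 and −0.17).

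By family, the 4 calls fell among 23 leucine-rich repeat members, of which 19 had negative changes (median log2 −0.17). None of the 14 other members was called by edgeR (1 at an unadjusted p under 0.05, 0 by DESeq2), and 7 of them were negative (median log2 −0.0013). The 95% interval lay within 0.5 log2 units of 0 for 12 of these 14 and for 9 of the 23. This split is a description, as the members were chosen with earlier results of these data known.

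**Figure D3:**
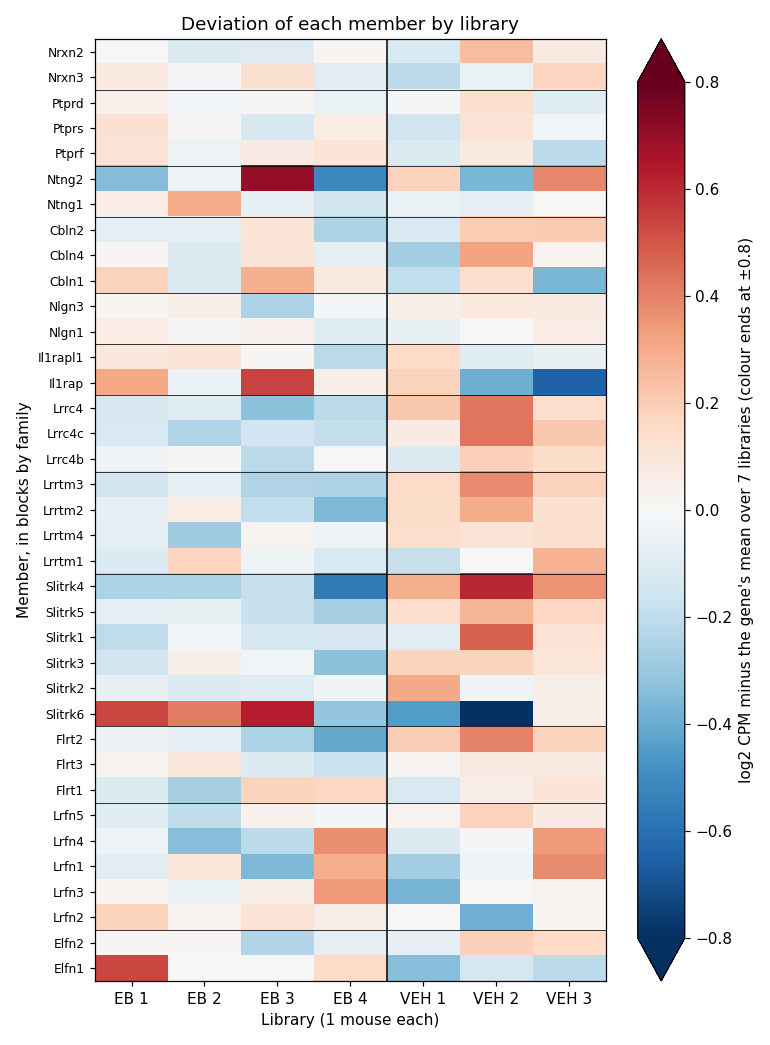
Log2 CPM of each member minus its own mean over the 7 libraries, with EB libraries left of the line and vehicle libraries right of it; rows are grouped by family, and red is above and blue below the gene's mean. The blocks of LRRC4, LRRTM and SLITRK rows are mostly blue with EB and red with vehicle. Within the Slitrk4 row the red is deepest in vehicle 2. Slitrk6 is red in EB 1, EB 2 and EB 3 and blue in EB 4, vehicle 1 and vehicle 2, with vehicle 3 near its mean.

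The members spanned an 83.0-fold range of level per kb of exon with EB, and a 44.1-fold range per kb of the longest transcript. Per kb of exon (union of GENCODE exons), Cbln1 was highest at 45.1 ± 5.20 CPM per kb with EB and 38.1 ± 6.78 CPM per kb with vehicle (SD, n = 4 and 3), a gene best known from cerebellar granule cells. Lrrc4c followed with EB at 36.2 ± 1.29 CPM per kb, and it was at 48.5 ± 6.15 CPM per kb with vehicle, above Cbln1 there. Next came Lrrtm2 (30.0 ± 3.69 with EB and 37.5 ± 2.46 with vehicle) and Cbln4 (28.0 ± 1.85 with EB and 29.2 ± 6.03 with vehicle), whose levels did not differ beyond their spread with EB. Slitrk4 ranked 9 with EB at 16.7 ± 1.88 CPM per kb and was at 27.7 ± 3.29 CPM per kb with vehicle. Slitrk1 was at 18.5 ± 0.989 CPM per kb with EB and 23.0 ± 4.62 CPM per kb with vehicle, above Slitrk4 with EB and below it with vehicle. Among the other families, Nlgn1 stood at 19.7 ± 0.932 CPM per kb with EB, Nrxn3 at 17.4 ± 1.12, Flrt2 at 17.1 ± 1.99, Ptprd at 16.2 ± 0.458 and Elfn1 at 15.9 ± 2.93, and these 5 lay within a spread of about 4 CPM per kb. Lrfn5 led the LRFN genes at 7.87 ± 0.559 CPM per kb, Ntng1 the netrin-G genes at 6.82 ± 0.954 and Il1rapl1 the accessory genes at 6.69 ± 0.663. The lowest levels were those of Lrfn1, at 1.30 ± 0.245 CPM per kb, and Ntng2, at 0.543 ± 0.224 CPM per kb with EB. Per kb of the longest transcript, Cbln1 and Lrrc4c kept the first ranks, and Ptprd and Ptprs, whose annotated exons are long, moved to ranks 3 and 4. On that scale Lrfn5 was at 17.0 CPM per kb with EB, and Il1rap (6.94) stood level with Il1rapl1 (6.84), so the order of the accessory genes depends on the length used.

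**Figure D4:**
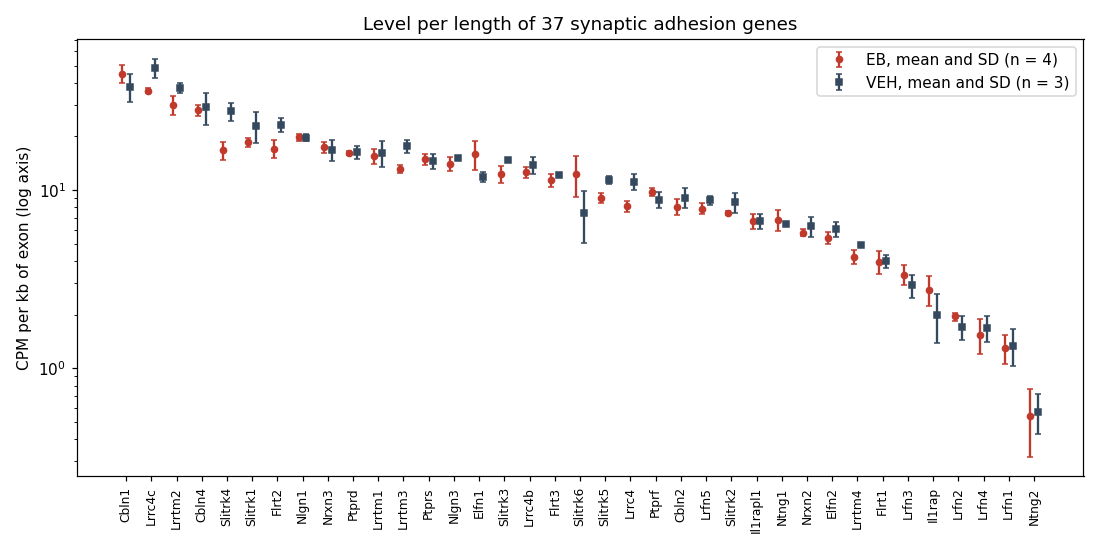
CPM per kb of exon on a log axis for the 37 members in order of their mean level, with EB as red circles and vehicle as dark squares (mean and SD). Levels run from 45.1 CPM per kb for Cbln1 to 0.543 for Ntng2 with EB, and the squares stand above the circles for Slitrk4, Lrrc4c, Lrrtm3 and Flrt2.

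Variation between mice was modest for most members. The median coefficient of variation over the 37 genes was 8.95% with EB and 10.5% with vehicle. Ntng2 was the most variable with EB (41.2%), Slitrk6 with vehicle (32.2%), and Slitrk2 the least variable with EB (2.61%). EB 4 was the lowest EB library for 16 members, EB 2 for 14, EB 3 for 6 and EB 1 for 1.

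Markers of other cells were read beside these results. In bulk tissue, fewer cells of a type and less RNA per cell cannot be told apart. The summed CPM of 5 pan-neuronal markers ran from 3998 to 5044 with EB and from 4346 to 4707 with vehicle, with 0 of 5 called. The 7 mural and fibroblast markers summed to 141 to 240 CPM with EB and 121 to 308 CPM with vehicle, and the 5 endothelial markers to 49.7 to 68.5 CPM with EB and 58.6 to 93.3 CPM with vehicle. For the 5 astrocyte markers the sums were 1001 to 1542 CPM with EB and 1179 to 1511 CPM with vehicle. The sums overlapped between groups in these 4 lists. They did not overlap for 8 markers of amygdala, striatum or cortex, with 256 to 279 CPM with EB and 281 to 306 CPM with vehicle. The nearest libraries for that list were EB 2 at 279.1 CPM and vehicle 2 at 280.6 CPM. Of its 8 markers, 7 had negative changes. The sums also did not overlap for 5 microglial markers, with 82.5 to 97.8 CPM with EB and 99.9 to 103 CPM with vehicle. Of the 5 microglial markers, 3 had negative changes, and only P2ry12 had no overlap (log2 −0.42; adjusted p = 0.125 by edgeR). Tmem119 and Csf1r had log2 changes of 0.11 and 0.10. No marker in these 6 lists was at 0 in any library, and edgeR called 0 of them. The 7 VMHvl markers summed to 1731 to 1782 CPM with EB and 1362 to 1555 CPM with vehicle, and edgeR called 1 of them, the progesterone receptor gene Pgr, a known estrogen target, which was higher with EB. The sums of the other 6 lists (arcuate neurons, thalamus, oligodendrocytes and their precursors, ependyma and pituitary) overlapped between groups. Their part in the changes of the members was not tested. With vehicle 1 and EB 4 both left out, edgeR called Slitrk4 and Lrrc4c lower (adjusted p = 0.00237 and 0.0231), and Lrrtm3 and Flrt2 had log2 changes of −0.44 and −0.41 (adjusted p = 0.0961 and 0.104).

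The synaptic partners of these proteins were read from a list of 45 genes, of which 44 were tested and Grm6 had 0 counts in every library. EdgeR called 1 lower and 1 higher, where the shares over all tested genes were 0.207% and 0.712%. At an unadjusted p under 0.05, 1 partner was lower and 8 were higher (18.2%), against 3.85% and 4.69% of all tested genes, and 2 lower and 5 higher partners had no overlap between the groups, against 3.99% and 5.11%. Unc5c, a netrin receptor of the UNC5 family to which FLRT proteins bind, had 117, 146, 130 and 122 CPM with EB, against 177, 190 and 184 CPM with vehicle. The EB libraries were all lower (log2 −0.51 ± 0.08 SE; adjusted p = 0.00608 by edgeR), and the call held without each library in turn, and ended with library totals only (0.159). Unc5b, another UNC5 receptor, is given because of its opposite sign and was chosen after its values were seen. It had 9.70, 10.2, 7.88 and 16.2 CPM with EB, against 6.34, 5.07 and 5.94 CPM with vehicle. All EB libraries were higher, with EB 4 highest (log2 0.93 ± 0.23 SE; adjusted p = 0.118 by edgeR and 0.00992 by DESeq2), and it was the second partner that DESeq2 called higher beside Mdga1. Unc5a had a log2 change of 0.30 (adjusted p = 0.572 by edgeR) and Unc5d one of −0.04. Mdga1, a membrane-anchored protein that binds neuroligins and blocks their contact with neurexins, had 13.9, 16.1, 15.5 and 13.4 CPM with EB, against 6.57, 7.13 and 10.8 CPM with vehicle (log2 0.85 ± 0.18 SE; adjusted p = 0.0497 by edgeR). It had no overlap, but its call held only without vehicle 3 (adjusted p = 0.0159 by edgeR), and leaving out vehicle 1 or vehicle 2 ended it (0.177 and 0.155), as did leaving out any EB library (0.130, 0.163, 0.122 and 0.0772 for EB 1 to 4). The median log2 change of the 44 partners was −0.03, with 26 negative.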

How the data were processed

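Mice were numbered within each group in sample order. RNA from 7 mice was measured by RNA-seq (Qiagen RNeasy Micro extraction and Tecan/NuGEN Trio libraries from 15 ng of RNA, per the labels' protocols). For every library the authors supplied whole-number counts by gene, not normalised. HISAT2, HTSeq, DESeq2 and the build mm10 are named in the submitters' processing notes, and these notes give no versions, annotation, strand setting or treatment of multiply mapped reads. The members and lists were chosen with earlier results of these data known.

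Genes were kept by filterByExpr (minimum count 10), scaled by TMM and tested in edgeR 4.0.16 (R 4.3.3; estimateDisp, robust glmQLFit, glmQLFTest) with no covariate, and a gene was called where p, adjusted by Benjamini-Hochberg across 18387 genes, was under 0.05. Standard errors and 95% intervals came from the F statistic. The biological coefficient of variation was 22.3%. Replicate pairs differed by more than counting noise (chi-square per degree of freedom 17.0 to 166). Lengths and positions came from GENCODE M21 (GRCm38), with all 37 members matched.

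Values in every library are given for called members, the 12 members with the smallest p and the highest member per kb of each of 12 families, which made 19 genes, and for called partners. Alternatives were DESeq2 1.42.0, limma-voom (limma 3.58.1), no robust fitting, 3 other scalings, 2 other filters (a CPM of 1 in 3 libraries, or no filter), removal of 50 mitochondrial and haemoglobin genes, an adjusted p under 0.1, and each library left out. Leaving out vehicle 1 and EB 4 together was added after seeing the data. The scripts were tested on simulated data. Figures used matplotlib 3.10.9.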

Additional observations from a re-analysis of the deposited data

Results flagged for a closer look

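The 37 members were each examined for an EB library far from the other 3, which chance gives in about 1 group of 20. Lrrc4b was the 1 gene found: EB 3 stood at 33.1 CPM, below 37.6, 38.5 and 38.4 CPM in EB 1, 2 and 4, against 35.4, 43.7 and 42.5 CPM with vehicle.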

How the results depend on the processing

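Over all genes, 169 were called. DESeq2 called 351, and leaving out 1 library gave 94 (without vehicle 3) to 159. Members called lower numbered 4, against 7 by DESeq2, 1 with library totals only, 2 without vehicle 1 and EB 4 together, and 1 to 3 with 1 library left out. Members called higher numbered 0 under every alternative. Partners called higher numbered 1, against 2 by DESeq2 and with no filter, and 0 without robust fitting, with upper quartile scaling, with library totals only, without vehicle 1 and EB 4 together, and 0 to 1 with 1 library left out. Partners called lower numbered 1, against 0 with library totals only. The cause of these differences was not tested. No paired analysis was possible because mice carry no number that the groups share.

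Among the 19 members given in every library, signs changed for 5 uncalled ones with estimates near 0. With 1 library left out, log2 changes ran from −0.012 to 0.15 for Ntng1, −0.031 to 0.034 for Nlgn1, −0.041 to 0.15 for Nrxn3, −0.054 to 0.075 for Il1rapl1 and −0.069 to 0.049 for Ptprd. Nlgn1 was at −0.0029 with upper quartile scaling, Nrxn3 at −0.00034 and Il1rapl1 at 0.15 without vehicle 1 and EB 4, Il1rapl1 at 0.0032 by limma-voom, and Il1rapl1 and Ptprd at 0.039 and 0.023 with library totals only. The median log2 change over all genes stayed between −0.01 and 0.03 under every scaling. Ntng2, near 2 CPM, gave an interval too wide to show a change of moderate size.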
